A study of Mus musculus with 8 samples.

Results

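The Reg family comprises small secreted proteins built around a C-type lectin fold, and its mouse genes were followed here between crypts of the small intestine (SI) and of the colon (COL). The members were the mouse symbols Reg1, Reg2, Reg3a, Reg3b, Reg3d, Reg3g and Reg4, matched through the Ensembl identifiers of the count tables, which gave 7 of the 45706 genes counted. All 7 were found in the tables of both tissues. Of these, 5 passed the filter on low counts and could be tested, whereas Reg2 and Reg3d did not.

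Regenerating islet-derived (Reg) proteins were first known from pancreas and islet regrowth, and several are made in large amounts by the epithelium of the gut. Reg3b and Reg3g are secreted into the lumen, where Reg3g binds the peptidoglycan of Gram-positive bacteria and helps to keep microbes away from the mucosa. Epithelial cells raise Reg3 transcription when interleukin 22 (IL-22) from lymphoid cells activates STAT3, and also in response to microbial signals through Myd88. Reg1 is a member known from pancreas and small intestine, while Reg4 marks secretory cells of the intestine, among them enteroendocrine cells and the deep crypt secretory cells of the colon.

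Crypt RNA of 4 wild type C57BL/6N mice, 2 female and 2 male, was profiled by RNA-Seq directly after isolation, and the labels list no treatment. From every animal a library was made of each tissue, so that 4 SI libraries stood against 4 COL libraries. Mice 1, 2, 3 and 5 of the labels gave replicates 1, 2, 3 and 4 of each tissue (SI1 to SI4 and COL1 to COL4), mice 1 and 5 being female. Crypts were released by EDTA chelation, and the crypt protocol of the study takes the proximal small intestine and scrapes off its villi. The age of the mice is not given in the sources used here. In such bulk samples, fewer cells of a type and less RNA per cell cannot be told apart.

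Total counts ranged from 15969428 to 32908060 per library. Mitochondrial genes took 22.7% to 50.8% of the counts in 4 libraries (SI2, SI3, COL1, COL2) and 4.83% to 7.35% in the other 4, so this split ran across tissues and mice. Levels are given as CPM, the reads of a gene per 1e6 counts of its library, scaled by the trimmed mean of M values (TMM). Marker genes were read against the tissue labels. Of 9 Paneth cell markers, 7 were called higher in SI, 0 higher in COL and 2 were not called. Of 10 goblet and deep crypt secretory cell markers, 6 were called higher in COL, 0 higher in SI and 4 were not called. Among the latter list, Muc2, the main gel-forming mucin, reached 7718 to 16197 CPM in COL against 379 to 988 CPM in SI. Enterocyte markers summed to 66243 to 156810 CPM in SI and 3912 to 31553 CPM in COL, so the SI crypt libraries also held much absorptive cell RNA. Of these 12 markers, 9 were called higher in SI and 2, Car1 and Aqp8, higher in COL. Car1 alone gave 30001 of the 31553 CPM in COL3.

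Transcripts of 4 Reg genes, Reg1, Reg3a, Reg3b and Reg3g, were far more abundant in SI than in COL crypts, and Reg4 alone among those tested was higher in COL. Thus 4 of the 5 tested members were called higher in SI, where 15.5% of all 14491 genes tested were, and 1 was called higher in COL, where 12.9% of all genes were. A call here means an adjusted p under 0.05 (Benjamini-Hochberg, over all genes tested) in the quasi-likelihood test of edgeR, a rule that 28.4% of genes met in either direction. The ranges of CPM were apart between SI and COL for the same 4 members, compared with 33.5% of all genes tested. The median log2 fold change over all genes tested was -0.09, and scaling by library size alone moved it to -0.82 without turning the direction of any of the 5 members.

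Summed over the family, Reg transcripts came to 10067, 10111, 13753 and 8384 CPM in SI1 to SI4. The sums in COL1 to COL4 were 500, 253, 692 and 713 CPM. Each SI library thus held many times more Reg RNA than any COL library, with means of 10580 ± 2264 and 540 ± 214 CPM (SD, n = 4). The mean log2 difference was 4.38, or 20.8-fold, and an exact two-sided permutation test over the 70 assignments of the libraries gave p = 0.0286, the smallest it can give. Within the 4 mice the difference ran from 3.56 to 5.32, and the paired exact sign-flip test gave p = 0.125, which is the smallest possible with 4 mice. Of all counts, including mitochondrial ones, the family took 0.666% to 1.10% in SI and 0.0255% to 0.103% in COL.

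**Figure D1:**
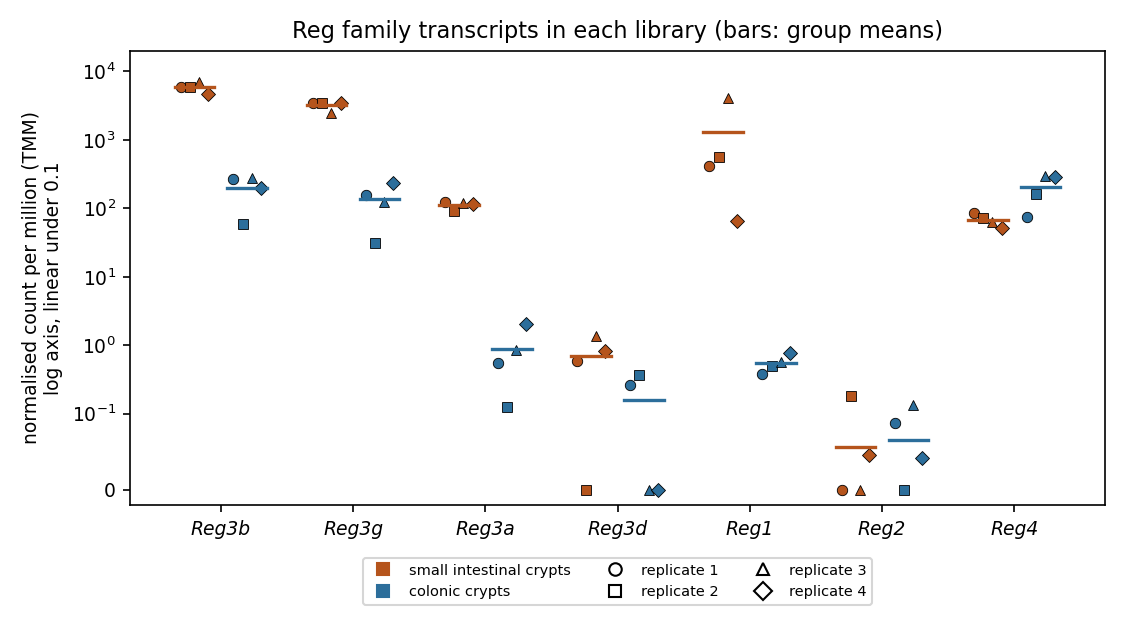
Normalised CPM (log axis, linear under 0.1) of the 7 Reg genes in each of 4 SI (brown) and 4 COL (blue) crypt libraries, with marker shapes for replicates and horizontal bars for group means. Reg3b, Reg3g, Reg3a and Reg1 separate the tissues without overlap, Reg4 overlaps between them, and Reg3d and Reg2 stay under 2 CPM.

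The 6 members other than Reg4 lie side by side on chromosome 6, between positions 78370657 and 78468872 of GRCm38 (98.2 kb), with 0 other genes of the tables between them. Reg4 lies apart on chromosome 3, at 98222156 to 98236748. Coding sequences of the members shared 57.4% to 82.6% of their aligned bases. Reg1 and Reg2 were the closest pair at 82.6%, followed by Reg3b with Reg3g at 76.4%, Reg3a with Reg3b at 74.7% and Reg3a with Reg3g at 73.2%. Reg3d, although placed within the same group by its name, shared 64.8% to 66.3% with the other Reg3 genes. No 50-base word of the longest coding transcript of Reg2, Reg3a, Reg3b, Reg3d, Reg3g or Reg4 occurred in a transcript of another gene, and for Reg1 3.74% of words did, none of them in another Reg gene, so words of this length told the members apart.

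**Figure D2:**
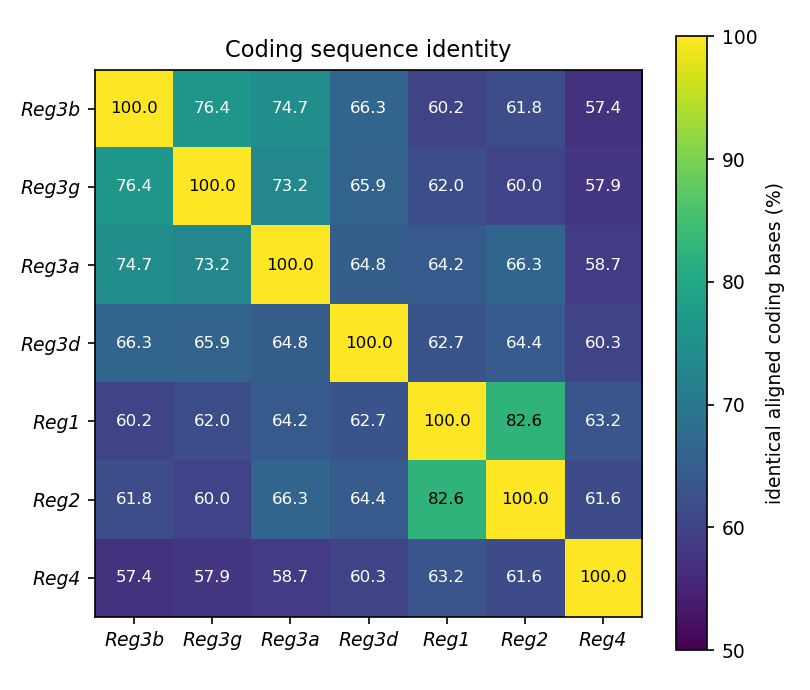
Percentage of identical bases in pairwise alignments of the coding sequences of the 7 Reg genes, from GENCODE vM21, as a coloured matrix. Reg1 with Reg2 (82.6%) and the trio of Reg3a, Reg3b and Reg3g (73.2% to 76.4%) form the closest groups, and Reg4 shares 57.4% to 63.2% with the others.

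The Reg3 members can be told apart at the loop that carries the Glu-Pro-Asn motif, known in this protein group for contact with sugars. The 39 bases around these codons are shown for the Reg3 genes, because the 3 Reg3 members that were high in SI differ here in their bases. The sequences run in the sense of the gene within exon 5 of 6, at chr6:78372812-78372850 (plus strand) for Reg3b, chr6:78466852-78466890 (minus strand) for Reg3g, chr6:78383172-78383210 (plus strand) for Reg3a and chr6:78376487-78376525 (minus strand) for Reg3d, all in GRCm38.p6. Capitals mark the 9 bases of codons 114 onward.
Reg3b: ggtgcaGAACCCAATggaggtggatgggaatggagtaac
Reg3g: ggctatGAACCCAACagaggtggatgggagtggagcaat
Reg3a: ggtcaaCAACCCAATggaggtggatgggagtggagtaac
Reg3d: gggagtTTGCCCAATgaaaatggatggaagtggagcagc
In-frame codons for Glu-Pro-Asn were found in Reg3b and Reg3g only, and not in the open reading frame of the other 5 members. By group mean those 2 genes were also the most abundant members in SI, although Reg1 exceeded Reg3g in SI3.

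Reg3b, which encodes a secreted lectin with antibacterial activity, was the most abundant member in SI by group mean. It was measured at 5946, 5928, 7012 and 4728 CPM in SI1 to SI4. In COL1 to COL4 it was measured at 271, 59.6, 276 and 196 CPM. Every SI library exceeded every COL library, the lowest SI value being 17.1 times the highest COL value, and COL2 stood lowest. The group means of 5904 ± 934 and 201 ± 101 CPM (SD, n = 4) correspond to a log2 fold change of 4.88 ± 0.64 (SE), or 29.4-fold, with an edgeR adjusted p = 0.000196.

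Reg3g, the member that binds Gram-positive cell walls, was likewise far higher in SI. It was below Reg3b in every library but COL4. Its CPM values were 3495, 3458, 2468 and 3423 in SI1 to SI4. In the colon they were 154, 31.4, 122 and 231 CPM in COL1 to COL4. SI3 lay below the other SI libraries, which were close to each other, and the tissues did not overlap. Means of 3211 ± 496 and 134 ± 82.5 CPM (SD, n = 4) gave a log2 fold change of 4.58 ± 0.64 (SE), 23.9-fold, with an edgeR adjusted p = 0.00031.

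Reg3a encodes a further lectin of the group and was much the rarer of the 3. It was steady in SI, at 124, 91.1, 118 and 115 CPM in SI1 to SI4. In COL it was close to absent, at 0.557, 0.124, 0.856 and 2.01 CPM in COL1 to COL4, which stand for 19, 2, 32 and 96 reads. The tissues were widely apart, and the spread in COL (16.2-fold from lowest to highest) exceeded that in SI (1.36-fold). The log2 fold change was 6.89 ± 0.63 (SE), with means of 112 ± 14.4 and 0.887 ± 0.807 CPM (SD, n = 4) and an edgeR adjusted p = 2.46e-05, the lowest of the family.

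Upstream sequences of Reg3b, Reg3g and Reg3a are shown because these 3 genes were high in SI together, and that of Reg4 because it went the other way. They come from the RefSeq promoter table (GRCm38.p6), in which all 7 members matched. Each gives 150 bases in the sense of the gene, free of annotated exons, at chr6:78370711-78370860 (plus strand) for Reg3b, chr6:78468875-78469024 (minus strand) for Reg3g, chr6:78380559-78380708 (plus strand) for Reg3a and chr3:98222006-98222155 (plus strand) for Reg4. Those of Reg3g, Reg3a and Reg4 end before the first annotated exon, while that of Reg3b lies within the annotated gene, between the first exon of 1 transcript, which begins at 78370657, and the start of the longest coding transcript. Capitals mark matches to TATAAA (the TATA box), TTCNNNGAA (the spaced palindrome bound by STAT factors) or CACCTG (an E-box).
Reg3b: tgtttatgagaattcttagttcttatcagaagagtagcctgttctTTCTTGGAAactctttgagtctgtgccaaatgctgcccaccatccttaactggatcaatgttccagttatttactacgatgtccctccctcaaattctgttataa
Reg3g: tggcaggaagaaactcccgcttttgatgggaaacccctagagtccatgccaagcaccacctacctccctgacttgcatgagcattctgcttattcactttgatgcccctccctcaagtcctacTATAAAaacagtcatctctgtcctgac
Reg3a: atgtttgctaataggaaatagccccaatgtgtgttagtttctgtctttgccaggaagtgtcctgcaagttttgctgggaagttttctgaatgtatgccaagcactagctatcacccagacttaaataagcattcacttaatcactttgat
Reg4: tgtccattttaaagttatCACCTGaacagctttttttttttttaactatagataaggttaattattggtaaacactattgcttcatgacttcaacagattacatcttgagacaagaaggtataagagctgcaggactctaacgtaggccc

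Motifs were sought on both strands of the 250 bases before each RefSeq start. TATAAA was present for 4 of 7 members (Reg1, Reg2, Reg3b and Reg3g) and in 12.4% of all 32851 promoters of that length. The Reg3b match lies 29 bases before its RefSeq start and runs into an annotated exon, so it is not within the stretch shown. TTCNNNGAA was present for Reg3b and Reg3d and in 7.02% of all promoters, and CACCTG was present for 5 members (Reg2, Reg3a, Reg3b, Reg3d and Reg4) and in 17.2% of them. A further motif, TTTATNG, the core sought by CDX factors of the gut, matched Reg3g and 9.81% of all promoters, and its matches in Reg3g overlap those to TATAAA. A match describes these letters only. The stretches of Reg3b and Reg3g aligned with 65.6% identical bases and those of Reg3a and Reg3b with 64.2%. Those of Reg3a and Reg3g aligned with 50.7%, which falls within the 45.1% to 56.6% of the Reg4 stretch with the other members, so the 3 genes did not stand apart from Reg4 as a group. The Reg3d stretch, not shown, aligned at 67.8%, 64.1% and 64.3% with those of Reg3a, Reg3b and Reg3g. Reg3d had little RNA in the crypts, so such likeness was not limited to genes high in SI.

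Reg1 had the largest fold change of the family and also the largest spread. In SI1 to SI4 it was measured at 417, 561, 4091 and 66.1 CPM. In COL1 to COL4 it was measured at 0.381, 0.497, 0.562 and 0.775 CPM, from 13, 8, 21 and 37 reads. SI3 thus carried 61.9 times the level of SI4, and yet the lowest SI library stood 85.3 times above the highest COL library. The log2 fold change was 11.15 ± 1.39 (SE), with means of 1284 ± 1883 and 0.554 ± 0.165 CPM (SD, n = 4) and an edgeR adjusted p = 0.000148. Without SI3 it was still called, and leaving out each library in turn kept it between 9.28 and 11.54.

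Because Reg1 is a pancreatic gene as well, the 12 markers of exocrine pancreas were read in the same libraries. In SI3, the library with the most Reg1, 11 of these 12 markers were at 0 counts. The remaining marker, Cela1, was higher in COL (145 CPM) than in SI (12.4 CPM), with a log2 fold change of -3.55 and an edgeR adjusted p = 0.00012. The other markers had at most 25 counts in any library, found for Cela2a in COL2, followed by Cpb1 with 17 counts in SI2. Amy2a5 and Ptf1a, the amylase and a transcription factor of acinar cells, were at 0 in all 8 libraries.

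Reg4 was the member with the weakest difference and the opposite direction. Its CPM values were 84.2, 72.4, 62.1 and 51.4 in SI1 to SI4. Those in COL1 to COL4 were 74.1, 161, 292 and 283 CPM. COL1 fell within the range of the SI libraries, so the tissues overlapped, and in mouse 1 SI exceeded COL. Means of 67.5 ± 14.0 and 203 ± 104 CPM (SD, n = 4) gave a log2 fold change of -1.59 ± 0.42 (SE), 3.00-fold higher in COL, with an edgeR adjusted p = 0.0147. This call was lost in edgeR with the donor mouse as a block (-1.44, adjusted p = 0.0508), without SI4 (-1.47, adjusted p = 0.0509), and within the libraries of high mitochondrial share (-0.87, adjusted p = 0.249). It was kept in limma-voom with the same block (-1.34, adjusted p = 0.0309) and, in edgeR, within the libraries of low share (-2.10, adjusted p = 0.00557). In COL, Reg4 was 118 CPM on average in the libraries of high and 288 CPM in those of low mitochondrial share, and the part of that share in the result was not tested.

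Markers of the secretory cells in which Reg4 is known were read beside it. Of 10 goblet and deep crypt secretory cell markers, 0 were higher in SI, 6 were higher in COL and 4 were not called, with a median log2 fold change of -2.66. Among all genes tested, 15.5% were called higher in SI and 12.9% in COL. Spdef, a transcription factor of secretory cells, changed by -3.37 and Agr2, needed for mucin folding, by -3.83 on the log2 scale. Of the 4 not called, Zg16 (0.88), Tff3 (0.86) and Fcgbp (0.66) leaned to SI and Clca1 (-0.79) to COL. All 10 markers of the list summed to 2889 to 10962 CPM in SI against 12878 to 24352 CPM in COL. Of 10 enteroendocrine markers, 2 were higher in SI and 2 were higher in COL, with a median of 0.10. The general endocrine marker Chga was at -0.72 (adjusted p = 0.195), while the hormone genes Gip (9.75), Pyy (-4.89) and Gcg (-4.16) were called in opposite directions.

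Reg3d and Reg2 were near the limit of detection. Reg3d had 13, 0, 27 and 18 counts in SI1 to SI4 and 9, 6, 0 and 0 in COL1 to COL4. Reg2, a pancreatic member close to Reg1 in sequence, had 0, 3, 0 and 1 counts in SI and 3, 0, 5 and 2 in COL. A difference was not detectable for Reg2 at this depth, and 3 counts correspond to 0.0628 to 0.187 CPM in these libraries. With no filter on low counts, Reg3d was at an adjusted p = 0.254 and Reg2 at 0.907 in edgeR. Within the 4 libraries of low mitochondrial share Reg3d passed the filter through SI alone (13 and 18 counts against 0 and 0 in COL), and the fit there gave no usable estimate. Thus Reg3d, which lies next to Reg3b in the cluster, and Reg2, the closest relative of Reg1, had little RNA in crypts where Reg3b and Reg1 were abundant.

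Levels of different members can be compared per kilobase of transcript, taken here as the longest coding transcript of each gene. That length was 771 bases for Reg3g and 783 for Reg3b, whereas all their annotated exons together cover 2114 and 1142 bases. The order, shares and ratios per kilobase depend on this choice, and other lengths were not tried. In SI, Reg3b stood first at 7540 ± 1192 CPM per kilobase, above Reg3g at 4165 ± 643 CPM per kilobase in all 4 libraries (SD, n = 4). Reg1 came next at 1420 ± 2083 CPM per kilobase, and its range overlapped those of its neighbours Reg3g and Reg3a. Reg3a (136 ± 17.4), Reg4 (66.1 ± 13.8), Reg3d (0.889 ± 0.725) and Reg2 (0.081 ± 0.123 CPM per kilobase) followed, the last pair overlapping. In COL, Reg3b (256 ± 129), Reg4 (199 ± 102) and Reg3g (174 ± 107 CPM per kilobase) overlapped and their order did not hold in every library. Below them Reg3a (1.08 ± 0.978), Reg1 (0.613 ± 0.183), Reg3d (0.204 ± 0.242) and Reg2 (0.094 ± 0.083 CPM per kilobase) each overlapped with the next.

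The make-up of the family therefore differed between tissues. As a share of the family signal per kilobase, Reg3b made up 53.0% to 59.2% in SI and 27.6% to 55.8% in COL. Reg4 made up 0.36% to 0.643% in SI and 11.7% to 57.2% in COL. Reg1 made up 26.8% in SI3, and 0.680% to 4.83% in the other SI libraries. The ratio of Reg3b to Reg3g per kilobase was more stable, at 1.36 to 2.80 in SI and 0.839 to 2.24 in COL, so it overlapped between the tissues although each gene was many times higher in SI. The ratio of Reg3b to Reg3a per kilobase was 43.5 to 68.6 in SI and 103 to 511 in COL.

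**Figure D3:**
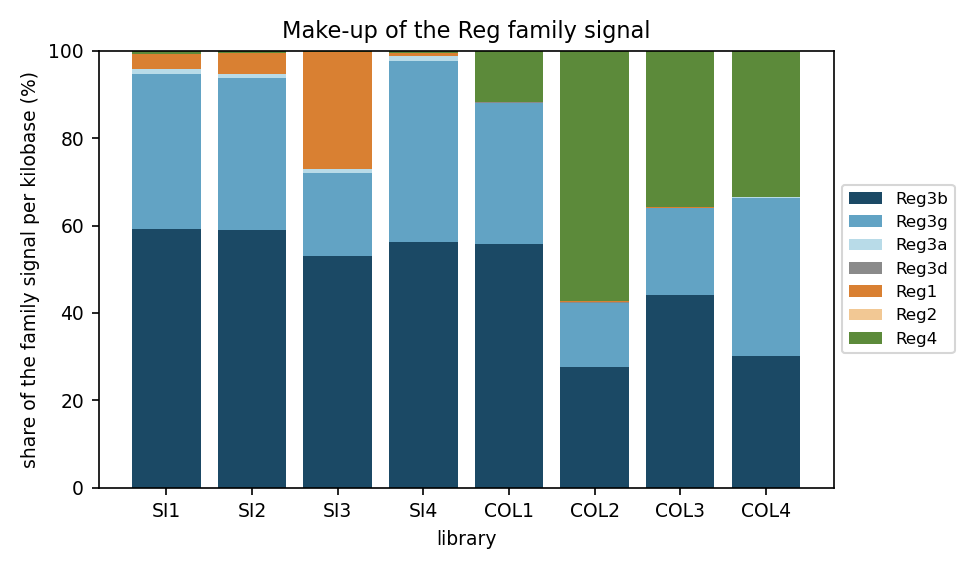
Share of the Reg family signal per kilobase of the longest coding transcript (vertical axis, percent) taken by each member in the 4 SI and 4 COL libraries, as stacked bars. Reg3b and Reg3g fill most of each SI bar, Reg1 takes 26.8% in SI3, and Reg4 takes 11.7% to 57.2% of the COL bars.

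Within single mice, the SI library exceeded the COL library of the same animal in 4 of 4 mice for Reg1, Reg3a, Reg3b and Reg3g. For Reg3b the log2 difference, with 0.1 CPM added to each value, was 4.46, 6.63, 4.67 and 4.59 in mice 1, 2, 3 and 5. For Reg3g it was 4.50, 6.78, 4.34 and 3.89. Mouse 2, whose COL library had the lowest Reg3b, Reg3g and Reg3a, gave the largest difference for these genes. That COL library also had the highest mitochondrial share (50.8%), whose part in this was not tested. Reg3a differed by 7.56, 8.67, 6.95 and 5.77. Reg1 differed by 9.76, 9.88, 12.6 and 6.24, with mouse 3 on top. Reg4 differed by 0.18, -1.15, -2.23 and -2.46, so it was higher in COL in 3 of 4 mice.

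**Figure D4:**
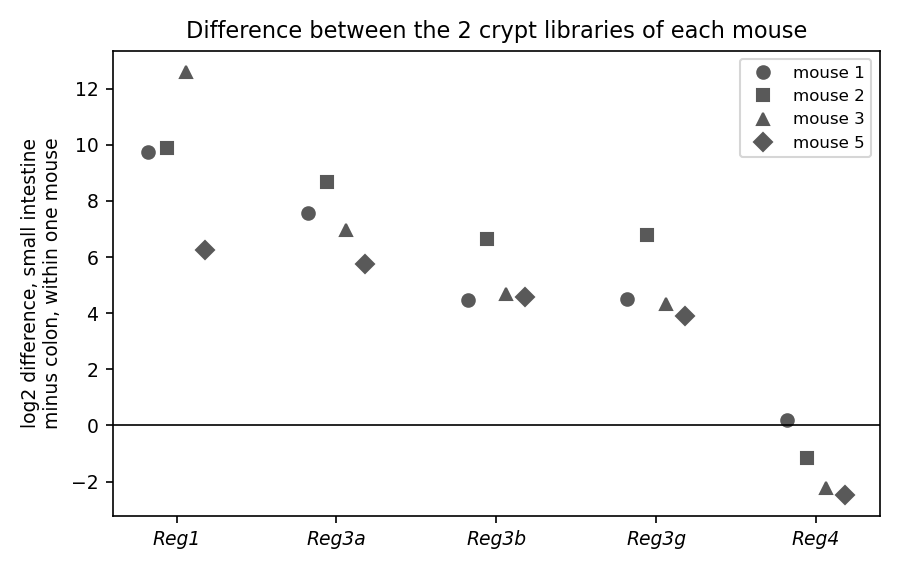
Log2 difference between the SI and the COL crypt library of the same mouse (vertical axis, 0.1 CPM added) for the 5 tested Reg genes, with a marker for each of the 4 mice. All values of Reg1, Reg3a, Reg3b and Reg3g lie above 3, and Reg4 lies between -2.46 and 0.18.

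With tissue means removed, the Reg3 genes correlated with one another over the 8 libraries pooled, and Reg1 did not follow them. After the tissue mean was subtracted from log2 CPM, Pearson's r over the 8 libraries was 0.905 for Reg3a with Reg3g, 0.80 for Reg3b with Reg3g and 0.715 for Reg3a with Reg3b. These points share library, depth and cell composition, and the values are a description. They also pool tissues of unlike spread. From lowest to highest, Reg3b, Reg3g and Reg3a spanned 4.64-, 7.35- and 16.2-fold in COL, against 1.48-, 1.42- and 1.36-fold in SI. Within SI, Reg3b and Reg3g did not move together, since SI3 had the highest Reg3b (7012 CPM) and the lowest Reg3g (2468 CPM). For Reg1 with the Reg3 genes r was between -0.10 and 0.21, and for Reg4 with the Reg3 genes between 0.03 and 0.43. Over the uncorrected values, the genes most like Reg3b among 7812 genes with mean log2 CPM of at least 3 were Prkg2 (r = 0.995), Ckb (0.995) and Slc5a4a (0.993). Those most like Reg3g were Pipox (0.996), Pla2g12b (0.991) and Gosr2 (0.991), and those most like Reg3a were Cyb5r3 (0.997), Treh (0.997) and Gosr2 (0.996). For Reg1 they were 4930402H24Rik (0.984), Mgam (0.975) and Atp1b1 (0.975), and for Reg4 they were Ccdc163 (0.975), Prdx6 (0.954) and Lypd8 (0.951). With the tissue mean subtracted, the most similar genes were Polr2f (0.993), Uqcrq (0.967) and Cenpx (0.963) for Reg3b and Tgm2 (0.982), Cstf1 (0.975) and Colgalt1 (0.973) for Reg3g. For Reg3a they were Cnp (0.985), Eif4a3 (0.982) and Anapc7 (0.981), for Reg1 Stim1 (0.977), Trit1 (0.952) and Cpne3 (0.935), and for Reg4 Bcl2l14 (0.965), Ckmt1 (0.963) and Brcc3 (0.96).

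Whether the difference between SI and COL depended on sex was asked with an interaction term, with 2 mice of each sex. No member was called, nor was any of the 14491 genes (0% called by edgeR and 0 by limma-voom), while 761 genes and 0 members had an unadjusted p under 0.05. Reg1 came nearest, with a log2 fold change larger in males by 3.40 ± 1.53 (SE), an unadjusted p = 0.0501 and an adjusted p = 0.909 in edgeR. Its SI values were 561 and 4091 CPM in the males and 417 and 66.1 CPM in the females. Each male value lay above each female value, and the size of the gap rests largely on SI3. The male SI libraries were also those with a high mitochondrial share, and sex and that share cannot be told apart within SI. For Reg3a, Reg3b, Reg3g and Reg4 the interaction was 1.05 ± 0.98, 0.75 ± 1.22, 1.11 ± 1.09 and -0.36 ± 0.89 (SE).

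The measured protein-coding genes around the cluster had little RNA. On the left, Ctnna2, a catenin of neurons, began 391 kb away, had at most 33 counts and was not called (adjusted p = 0.878). Lrrtm1, a neuronal membrane protein 1112.9 kb away, had 0, 0, 1 and 0 counts in SI and 41, 9, 88 and 65 counts in COL, and it was called higher in COL (edgeR adjusted p = 0.00105). On the right, Gm20594 and Lrrtm4 had at most 1 and 12 counts and were not tested. The high levels in SI were thus seen for 4 Reg genes of the cluster and not for these neighbours.

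Genes of IL-22 and STAT3 signalling, its feedback inhibitor Socs3 and the Reg receptor Extl3 included, were read as a list of 16, of which 14 were tested. Of these, 5 were higher in SI, 1 (Extl3) was higher in COL and 8 were not called, where 15.5% and 12.9% of all genes tested were called. The median log2 fold change was 0.59 against -0.09 for all genes. Il22ra1, the chain that makes the IL-22 receptor specific to epithelium, was measured at 83.9, 43.1, 29.8 and 81.6 CPM in SI1 to SI4 and at 3.64, 13.2, 10.1 and 8.33 CPM in COL1 to COL4. The tissues did not overlap, and the log2 fold change was 2.76 ± 0.46 (SE, edgeR adjusted p = 0.000939). The partner chain Il10rb was higher in SI by 1.93 and the kinase Jak2 by 2.11 on the log2 scale. Stat3, the transcription factor that drives Reg3 genes, was higher in SI by 1.30 ± 0.33 (SE, adjusted p = 0.0114), and Socs3, its feedback inhibitor and target, by 2.74 ± 0.48 (adjusted p = 0.00132). Extl3, described as a receptor for Reg proteins, went the other way, with 11.99 CPM on average in SI, 25.1 CPM in COL, and a log2 fold change of -1.07 ± 0.25 (adjusted p = 0.00741). Il22 itself was at 0 counts in every library, and Myd88 was at 0.55 (adjusted p = 0.233).

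**Figure D5:**
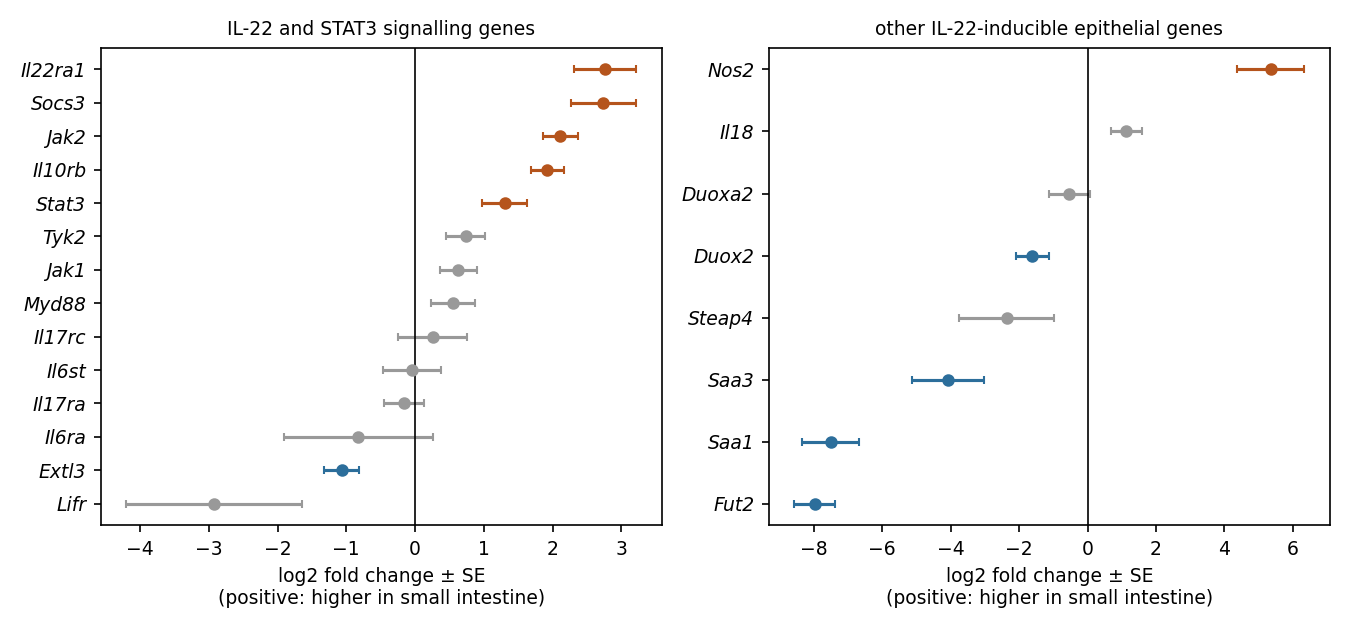
Log2 fold change of SI against COL with its standard error (horizontal axis) for tested genes of the IL-22 and STAT3 signalling list, Extl3 included (left). The right panel gives other epithelial genes that IL-22 induces. Brown marks genes called higher in SI, blue those called higher in COL and grey those not called, and Saa2, at 0 counts in all SI libraries, is left out. Il22ra1 (2.76) leads the left panel, while Fut2 (-7.97) and Saa1 (-7.51) lie far to the left in the right panel.

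Other epithelial genes known to be induced by IL-22 mostly did not share the direction of the Reg3 genes. Of 12 genes, 9 were tested, 1 was higher in SI, 5 were higher in COL and 3 were not called. Over all genes tested, 15.5% were called higher in SI and 12.9% in COL. The list's median log2 fold change was -2.36, also with Saa2 set at the limit that 3 counts allow. Fut2, the enzyme that fucosylates the epithelial surface, averaged 0.401 CPM in SI against 100.04 CPM in COL, a log2 fold change of -7.97 ± 0.59 (SE, edgeR adjusted p = 9.7e-06). Saa1, an acute phase protein of the epithelium, averaged 1.76 and 321 CPM (-7.51 ± 0.84, adjusted p = 7.34e-05). Its relative Saa2 had 0 counts in all SI libraries and 10 to 65 counts in COL (adjusted p = 0.0027). Only Nos2, the inducible nitric oxide synthase, was called higher in SI, by 5.35 ± 0.98 (adjusted p = 0.00182), although SI3 held 13.9 CPM against 86.7 to 182 CPM in the other SI libraries. Il18 leaned the same way but was not called (1.14, edgeR adjusted p = 0.086). The antibacterial lipocalin Lcn2 had at most 27 counts and was not tested.

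Other secreted antibacterial proteins were divided between the tissues. Of 12 genes, 10 were tested, 3 were higher in SI, 3 were higher in COL and 4 were not called, with a median log2 fold change of 0.33. The shares over all genes tested were 15.5% for SI and 12.9% for COL. Mptx1, a mucosal pentraxin, changed by -9.36 and averaged 2.51 CPM in SI against 1652 CPM in COL. Its relative Mptx2 was higher in SI, at 66.0 and 0.842 CPM. Retnlb, a resistin-like protein of goblet cells, changed by -8.53, and Lyz1, the lysozyme of Paneth cells, by 8.18 on the log2 scale. Zg16, a lectin of goblet cells, was at 0.88 (adjusted p = 0.323).

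Cell type markers differed between the tissues to unlike degrees and are given beside the Reg genes. For comparison, 15.5% of all genes tested were called higher in SI and 12.9% in COL. Of 9 Paneth cell markers, 7 were higher in SI, 0 were higher in COL and 2 were not called. Their sum was 622, 4724, 3082 and 2037 CPM in SI1 to SI4 and 25.2 to 96.2 CPM in COL. In the same SI libraries Reg3b was at 5946, 5928, 7012 and 4728 CPM, so it did not follow that sum within SI. Of 12 enterocyte markers, 9 were higher in SI, led by the lipid carriers Apoa4 (10.88), Fabp1 (10.77) and Apoa1 (10.52). The 2 that were higher in COL were Car1 (-6.75) and Aqp8 (-5.33). Of 7 stem cell markers, 1 was higher in SI (Olfm4, 7.24) and 1 in COL (Znrf3, -1.19). Of the 7 immune markers tested, 3 were higher in SI (Gzma 4.55, Gzmb 3.33 and Cd3e 2.05), and the list summed to 106 to 369 CPM in SI against 15.7 to 60.0 CPM in COL. Fibroblast and muscle markers gave 0 calls among 6 tested and summed to at most 11.2 CPM. The part of these cell types in the Reg differences was not tested.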

How the data were processed

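RNA-Seq of SI and COL crypts was analysed from whole-number counts per Ensembl gene, deposited by the authors without normalization. The submitters' processing notes name Trimmomatic 0.36, STAR 2.5.2b, mm9 and mm10. Annotation release and strand setting are not given in the sources used here. Symbols came from GENCODE vM21, in which 563 of 45706 identifiers had no match. The study's methods compare the tissues with limma at a Benjamini-Hochberg adjusted p under 0.05, and name no normalization, filter or covariate. Here SI was compared with COL in R 4.3.3 by edgeR 4.0.16 (quasi-likelihood test, TMM, filterByExpr with a minimum count of 10, threshold 0.05), checked on simulated data. Alternatives used limma 3.58.1, DESeq2 1.42.0, other filters and scalings, a sex term, each library left out, and libraries split at 15% mitochondrial counts. The labels give each donor mouse for both tissues, which pairs the libraries. Within pairs, deviations from tissue means correlated at -0.24, 0.393, -0.079 and 0.327. The main fit had no block. Replicates are separate mice. Members and lists were chosen with earlier results of these data known. Named were all members, 4 signalling genes, up to 3 called genes per list, the 3 pancreas markers of highest count, the 3 most similar genes per member, and 2 neighbours per side. Further genes (Chga, Myd88, Lcn2, Zg16, Il10rb, Mptx2, Nos2, Il18, Il22, Amy2a5, Ptf1a, Tff3, Fcgbp, Clca1, Car1 and Aqp8) were named after their values were seen. Coding transcripts were aligned with Biopython. Depth limits Reg2 and Reg3d, and precision elsewhere rests on 4 libraries per tissue.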

Additional observations from a re-analysis of the deposited data

Results flagged for a closer look

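Among the 14 groups of 4 libraries formed by 7 members and 2 tissues, a single library stood apart in 2 by Dixon's test, which asks whether the gap to the nearest library, divided by the range, exceeds the critical value for 4 samples. Chance marks about 1 in 20 such groups. Both cases were SI3: Reg1 was high there at 4091 CPM (gap over range 0.877), and Reg3g was low there at 2468 CPM (0.93).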

How the results depend on the processing

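Reg1, Reg3a, Reg3b and Reg3g kept their direction and stayed past the threshold under every alternative that tested them (17, 17, 18 and 18 settings besides the main one). Their log2 fold changes ran over 8.46 to 12.33, 6.07 to 7.99, 4.06 to 5.22 and 3.73 to 5.06. Reg4 kept its direction in all 18 (-2.35 to -0.87) and was called in 15. With 10 counts required in every library, 3 members were called, since Reg1 and Reg3a were then not tested. The replicate block (donor mouse) in edgeR left 4 members called, with Reg4 lost at -1.44, and changed no other call, while limma-voom with this block called 5. Scaling by library size alone took the log2 difference of the family sum from 4.38 to 3.65 (exact permutation p = 0.0286). For the family sum, the replicate block (sign-flip test within mice) gave 4.38 (p = 0.125), the libraries of high mitochondrial share 5.05 and those of low share 3.71 (exact permutation p = 0.333 for each, the smallest that 2 against 2 can give). The sex interaction gave 0 calls under the replicate block too. Over all genes, 4116 calls became 2264 within the libraries of high and 5530 within those of low mitochondrial share, and scaling by library size called 1115 genes for SI and 4788 for COL in place of 2253 and 1863 (the cause was not tested). Depth limits Reg2 and Reg3d, and the COL levels of Reg3a and Reg1 rest on 2 to 96 reads.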
